A study of Mus musculus with 1824 samples.

Results

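The cells described here carried messenger RNA of Etv2 together with Kdr and had few transcripts of mature endothelium. They are called Etv2-positive cells below. A cell was taken when its library held at least 100000 reads, when Etv2 and Kdr each reached 20 counts per 1000000 reads (CPM), and when fewer than 3 of the 5 endothelial genes Cdh5, Pecam1, Tie1, Tek and Esam reached that level. The rule found 110 cells with none of these 5 genes, 27 with 1 and 22 with 2, together 8.72% of 1824 cells and 9.64% of the 1649 cells with enough reads. Because those 7 genes chose the cells, their values are given as a description, with no test. The members were compared with 150 Kdr-positive cells in which no Etv2 read was counted and with endothelium (22.7% of cells with enough reads), defined by at least 3 of the 5 endothelial genes at 20 CPM.

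Full-length RNA libraries (Smart-seq2) were made from single cells of mouse chimaeras, sorted into 96-well plates. Embryonic stem cells lacking all of the Tet genes (Tet-TKO) and carrying a histone H2B-tdTomato label were injected into C57BL/6J blastocysts, the chimaeras were carried by CD1 recipients, and the labels give the strain of every cell as CD1. Embryos were collected at embryonic day 7.5 (E7.5, 11 plates of 96 wells) or 8.5 (E8.5, 8 plates), and the sorts used surface KDR and CD41. The labels of single cells state neither genotype nor sort gate, so every class below may mix injected and host cells, and a share of cells refers to the wells that were filled. The injected cells came from 1 cell line, and the labels name single animals on 4 E7.5 plates (embryos 1, 2, 4 and 5). The methods describe pooling of chimaeric embryos, so an unnamed plate may hold cells of several animals. Each stage therefore counted as 1 sample, and plates are technical units.

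Etv2 encodes an ETS-family transcription factor that acts briefly in mesoderm leaving the primitive streak, where it starts the blood and endothelial programmes. Kdr encodes the receptor for vascular endothelial growth factor (VEGF) that marks this mesoderm and later the vessel wall. Cells with the potential for both lineages, the haemangioblasts, switch on Tal1, a basic helix-loop-helix factor that works in one complex with Lmo2 and Gata2. Endothelium then keeps Kdr and adds junction and adhesion genes, whereas blood progenitors add Runx1, Gfi1b, Itga2b (which encodes CD41) and Gata1.

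The promoters of Etv2, Tal1 and the early endothelial gene Egfl7 are shown because the comparisons below turn on these genes. Each run is the 250 bases before the RefSeq gene start in GRCm38.p6, read 5′ to 3′ on the strand of the gene, and capitals mark GGAA and its reverse complement TTCC, the core letters of ETS-factor motifs. The windows lie at chr7:30635853-30636102 on the minus strand for Etv2, at chr4:115056176-115056425 on the plus strand for Tal1 and at chr2:26580833-26581082 on the plus strand for Egfl7. Tal1 had 2 windows and Egfl7 had 3, and the most upstream one is shown. The Egfl7 window lies inside the gene as annotated by GENCODE, which starts at 26580014, so the copies counted depend on the start chosen.
Etv2: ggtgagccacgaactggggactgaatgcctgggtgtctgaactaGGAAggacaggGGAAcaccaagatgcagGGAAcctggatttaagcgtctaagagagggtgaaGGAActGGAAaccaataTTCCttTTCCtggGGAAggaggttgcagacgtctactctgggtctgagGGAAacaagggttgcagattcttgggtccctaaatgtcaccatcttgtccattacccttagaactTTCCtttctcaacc
Tal1: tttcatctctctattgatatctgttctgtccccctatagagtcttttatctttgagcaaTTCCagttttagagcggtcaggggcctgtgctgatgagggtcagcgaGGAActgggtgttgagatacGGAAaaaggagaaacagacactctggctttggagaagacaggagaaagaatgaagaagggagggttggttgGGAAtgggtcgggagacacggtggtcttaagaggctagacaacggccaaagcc
Egfl7: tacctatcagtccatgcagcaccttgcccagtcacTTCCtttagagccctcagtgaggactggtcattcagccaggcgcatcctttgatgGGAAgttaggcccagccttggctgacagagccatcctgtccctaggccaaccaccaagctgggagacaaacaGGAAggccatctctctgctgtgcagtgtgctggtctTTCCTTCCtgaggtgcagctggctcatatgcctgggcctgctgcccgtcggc
The core was found 10 times in the Etv2 window, a number reached by 0.192% of 32851 promoter windows. The Tal1 window held 4 copies, a number reached by 33.4% of windows, and the Egfl7 window held 5, reached by 18.03%. A 4-letter core is common, with 93.4% of windows holding at least 1 copy and a median of 3. GATAA, the letters of a GATA-factor motif, occurred once in the Tal1 window on either strand and in 22.6% of all windows. These matches describe letters only, and no binding was measured. Of 9 genes looked up, 6 had a window in the table, and Lmo2, Fli1 and Sox7 did not.

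Etv2-positive cells made up 11.7% of the cells with enough reads at E7.5 (exact 95% binomial interval 9.74 to 13.9) and 6.78% at E8.5 (5.03 to 8.92, 47 cells). The intervals cover counting error only. Members occurred on 16 of 19 plates. At E7.5 the share ran from 3.23% on lane plate 1 (3 of 93 cells) to 30.95% on lane plate 3 (26 of 84 cells). Named embryos 1, 2, 4 and 5 held 8, 14, 5 and 9 members. At E8.5, 44 of the 47 members lay on plates 3, 4 and 5, with 12, 21 and 11 cells, and plates 1, 2 and 7 held none of 92, 91 and 88 cells.

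**Figure D1:**
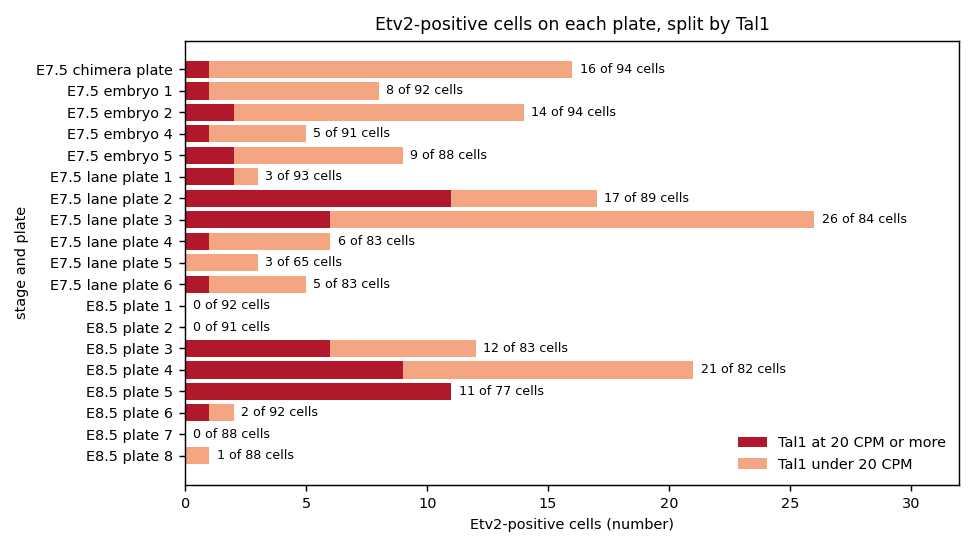
Number of Etv2-positive cells on each plate (horizontal bars, with the total of cells of at least 100000 reads printed beside them), split by Tal1 at 20 CPM. Lane plate 3 held most members at E7.5 and plate 4 most at E8.5, while all 11 members of E8.5 plate 5 carried Tal1.

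The members held 130360 to 2985326 reads per cell, with a median of 744314 and a median of 8532 detected genes. The median depth of Kdr-positive cells without Etv2 was 598961 reads and that of endothelium 641912. At E8.5 the gap was wider, with medians of 605821, 365051 and 527382 reads in members, Kdr-positive cells and endothelium. Of the members, 2 exceeded the study's limits for mitochondrial or ribosomal reads and were kept.

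Etv2 ranged from 20.1 to 1863 CPM over the E7.5 members, with a median of 73.6, and from 20.6 to 1791 CPM at E8.5, with a median of 136.5. Kdr ranged from 22.6 to 2353 CPM (median 609.04) and from 31.1 to 3737 CPM (median 785.7). The weakest member had 20.1 CPM of Etv2 and the nearest cell left out on Etv2 alone had 19.98 CPM. For Kdr the values just inside and just outside were 22.6 and 16.9 CPM. A further 88 Kdr-positive cells had some Etv2 reads below 20 CPM and belong to neither class. Etv2 also reached 20 CPM in 37.2% of the endothelial cells, 49 of them at E7.5 and 90 at E8.5, so the gene itself did not separate the members from endothelium.

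The working name of haemangioblast-like cells was set against the third marker, Tal1. Tal1 reached 20 CPM in 28 members at E7.5 (25%, 17.3 to 34.1) and in 27 of 47 at E8.5 (57.4%, 42.2 to 71.7). In endothelium the shares were 77.3% and 76.02%, and in Kdr-positive cells without Etv2 they were 9.80% and 29.2%. Of the latter cells with Tal1, 6 of 10 at E7.5 lay on lane plate 1 and 10 of 14 at E8.5 on plate 5. Without these plates the shares were 4.17% and 11.4% in Kdr-positive cells, 23.9% and 44.4% in members and 79.6% and 70.9% in endothelium. Most E7.5 members thus lacked Tal1 at this level and many carried genes of the primitive streak, and the 11 members on E8.5 plate 5 all carried genes of blood progenitors. The data therefore go against 1 cell type for all members, and they are called by the rule. E8.5 plate 5 and E7.5 lane plate 1, whose 3 members had no read of Mesp1, Mixl1, Eomes or Pdgfra, stood apart from the other plates, and results that rest on them are given with and without them. Both plates were singled out after seeing the data, Tal1 included, so the values without them are descriptions.

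Of the E7.5 members, 94 carried none of the 5 endothelial genes at 20 CPM, 13 carried 1 and 5 carried 2. At E8.5 the numbers were 16, 14 and 17 of 47 cells. Tek, the angiopoietin receptor, was the most frequent of the 5, in 24 members, followed by Esam in 19, Pecam1 in 10, and Cdh5 and Tie1 in 9 each. With both stages pooled, Tal1 reached 20 CPM in 19 of 110 members with no endothelial gene, in 19 of 27 with 1 and in 17 of 22 with 2. Of the members with none, 94 of 110 were from E7.5, and of those with 2, 17 of 22 were from E8.5. In these pooled values, stage and the number of endothelial genes cannot be told apart. Members with and without endothelial genes thus overlapped in Tal1, and the median was 0 CPM in cells with none, 137.6 CPM with 1 and 221.3 CPM with 2.

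At E7.5 the 28 members with Tal1 differed from the 84 without it in a set of early blood and vessel factors. Lmo2, the partner of Tal1, ranged from 0 to 463.4 CPM in Tal1-positive members with a median of 118.96, and from 0 to 214.5 CPM with a median of 0 in the others. It reached 20 CPM in 24 of 28 against 6 of 84 cells. Hhex, a homeobox factor of early endothelium, did so in 21 against 5 cells, the ETS factor Fli1 in 17 against 6 and Gata2 in 18 against 11. Sox7, a SoxF factor of nascent endothelium, reached 20 CPM in 16 of 28 Tal1-positive members and in 0 of 84 others, where its highest value was 7.13 CPM. Both groups overlapped for each of these genes, since some Tal1-positive members had no read of them.

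Egfl7, which encodes a secreted protein of the forming vessel wall, was the least restricted. It reached 20 CPM in 27 of 28 Tal1-positive and in 54 of 84 Tal1-negative members, with medians of 117.9 and 30.97 CPM. The TGF-beta co-receptor Eng was found in 17 against 13 cells, and Plvap, a component of endothelial diaphragms, in 9 against 3. Etv2 itself had a median of 247.8 CPM in the Tal1-positive and 53.01 CPM in the Tal1-negative cells, with ranges of 20.5 to 1863 and 20.1 to 592.1. The highest Etv2 levels therefore lay among Tal1-positive members, and the ranges overlapped between 20.5 and 592.1 CPM.

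Several genes of the primitive streak and of nascent mesoderm showed the opposite split, but the streak gene T did not. Pdgfra, a receptor of early mesoderm, reached 20 CPM in 6 of 28 Tal1-positive and in 68 of 84 Tal1-negative members, and its median was 0 against 107.4 CPM. The T-box factor Eomes was found in 8 against 68 cells, Mesp1, which marks the first mesoderm to leave the streak, in 5 against 56, Lhx1 in 7 against 58 and Mixl1 in 11 against 65. Hand1 and Foxf1, factors of lateral plate and extraembryonic mesoderm, were found in 10 against 59 and in 5 against 41 cells. At E7.5, 6 members carried Tal1 and Pdgfra together at 20 CPM. Runx1 did not follow this split, at 9 of 28 against 26 of 84 cells. Nor did T, which reached 20 CPM in 13 of the 28 Tal1-positive members and in 49 E7.5 members (43.8%) in all.

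The split is a description of cells and has no replicate test. Lane plate 1 gave 2 of the Tal1-positive members and 1 of the others, so leaving it out moves no count above by more than 2 cells. Tal1-positive members were shallower, with a median of 590137 reads against 956533. They were also unevenly spread, with 11 on lane plate 2 and 6 on lane plate 3. Within lane plate 3 the pattern was the same for Lmo2 (6 of 6 against 1 of 20 cells), Hhex (6 against 1), Sox7 (5 against 0), Pdgfra (2 of 6 against 17 of 20), Mesp1 (1 against 16) and Eomes (1 against 17). Within lane plate 2, Hhex (9 of 11 against 0 of 6), Sox7 (7 against 0) and Egfl7 (10 against 1) split alike and Lmo2 less sharply (9 of 11 against 4 of 6). Pdgfra (1 of 11 against 4 of 6) and Hand1 (2 against 5) were again more frequent without Tal1. No member of lane plate 2 reached 20 CPM of Mesp1 in either group, and Eomes and Mixl1 were found in 2 and 3 Tal1-positive and in 0 Tal1-negative cells.

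**Figure D2:**
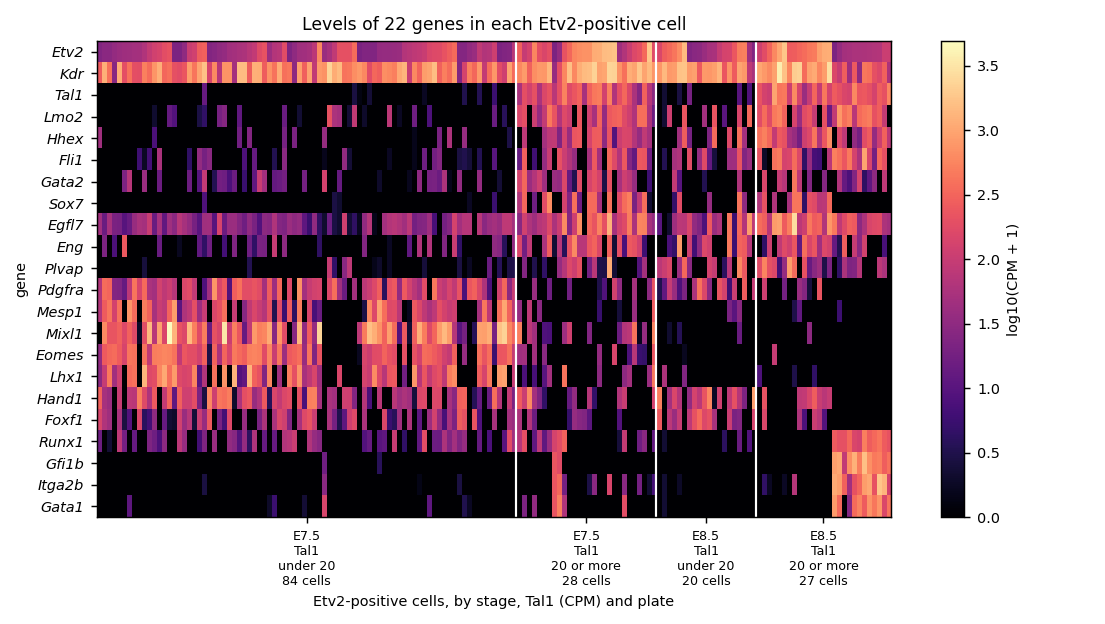
Level of 22 genes (rows) in each of the Etv2-positive cells (columns) as log10(CPM + 1), with white lines between stages and between cells below and above 20 CPM of Tal1. Cells within a block are ordered by plate. The patch of Runx1, Gfi1b, Itga2b and Gata1 at the right edge holds the 11 members of E8.5 plate 5 and the 1 Tal1-positive member of plate 6. The Mesp1, Mixl1, Eomes and Lhx1 signal fills most of the 84 E7.5 cells without Tal1.

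The 4 named embryos allowed a test across animals at E7.5, in which reads were summed per embryo and class and Etv2-positive cells were compared with Kdr-positive cells without Etv2. Tal1 stood at 16.9, 26.4, 2.28 and 39.8 CPM in the members of embryos 1, 2, 4 and 5, and no Tal1 read was counted in the Kdr-positive cells of any of them. Summed over the embryos, Tal1 was at least 230-fold higher in the members, taking 3 counts of the 29220280 reads of the other class as the limit of a count of 0. That limit covers the counting of reads alone, not the spread between cells, so it is no lower bound for the classes. Lmo2 stood at 17.6, 15.1, 3.98 and 61.7 CPM against 0.558, 0, 0 and 0.261 CPM. These sums rest on few cells, since Tal1 was read in 2, 2, 1 and 2 members of the embryos and Lmo2 in 4, 4, 2 and 3. In such sums, more cells with a gene and more RNA per cell cannot be told apart.

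With edgeR's quasi-likelihood test, embryo as a block, a 1% false discovery rate and a log2 fold change of at least 1, 0 of 11734 genes passed (0%), while 650 had an unadjusted p below 0.05. For Lmo2 the log2 fold change was 6.68 (SE 1.03) with an edgeR adjusted p of 0.535, and for Tal1 the adjusted p was 0.861. Over the alternatives run with edgeR these ranged from 0.103 to 0.9999 for Lmo2 and from 0.107 to 0.9999 for Tal1. DESeq2, on the same sums, called 46 of 13780 genes, 15 higher and 31 lower, with adjusted p values of 8.81e-09 for Tal1 and 3.88e-08 for Lmo2, so the calls of both genes depend on the tool. The genes of the rule are in none of these counts. Without the filter on low counts edgeR called 2 genes, Zc3hav1 and Mest, both higher with an adjusted p of 0.00751.

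Gata4, a zinc-finger factor of cardiac and extraembryonic mesoderm, stood at 150.5, 122.6, 133.4 and 178.1 CPM in the members against 72.99, 53.3, 91.4 and 54.2 CPM, without overlap. Its log2 fold change was 1.08 (SE 0.22, n = 4 embryos) with an edgeR adjusted p of 0.861 (0.457 to 0.9999 over the alternatives) and a DESeq2 adjusted p of 0.00507. Egfl7 stood at 48.1, 37.9, 35.3 and 46.4 CPM against 18.2, 30.3, 23.2 and 13.8 CPM, also without overlap, with a log2 fold change of 0.97 (SE 0.35) and adjusted p values of 0.861 in edgeR (0.815 to 0.9999 over the alternatives) and 0.265 in DESeq2. Complete separation of the 4 and 4 sums occurred for 2.25% of the genes tested with the members higher and for 1.12% with the members lower.

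Cdx2, a caudal homeobox factor that is also on the list of extraembryonic ectoderm markers, was lower in the members of every embryo. It stood at 0, 13.3, 10.2 and 1.13 CPM against 20.3, 64.8, 71.3 and 61.8 CPM, with a log2 fold change of -4.09 (SE 0.97), an edgeR adjusted p of 0.861 (0.392 to 0.9999) and a DESeq2 adjusted p of 4.58e-06. The 4 markers of that list tested with edgeR had a median log2 fold change of -2.18. Over all E7.5 plates, 7 Kdr-positive cells and 6 members carried at least 3 of the 8 markers at 20 CPM, with at most 8 in a Kdr-positive cell and 3 in a member. Zc3hav1, which encodes an antiviral zinc-finger protein, had the smallest edgeR p, with 235.6, 270.2, 499.1 and 432.5 CPM against 86.8, 83.5, 161.2 and 118.1 CPM, a log2 fold change of 1.62 (SE 0.14) and an adjusted p of 0.145. Mest, an imprinted gene of mesoderm, followed at 1.23 (SE 0.13) with an adjusted p of 0.164. These last genes were picked for their p values and are outside the named lists.

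The streak genes did not share a direction in the embryos. Pdgfra stood at 72.1, 185.4, 165.2 and 162.2 CPM in the members against 153.2, 297.8, 73.1 and 80.8 CPM. Mesp1 ran from 100.9 to 179.5 CPM against 33.4 to 315.3 CPM. Both were lower in the members of embryos 1 and 2 and higher in those of embryos 4 and 5. The median log2 fold change was 0.02 over 13 streak genes tested and 1.47 over 8 factors of the haemangioblast list, beside 0.01 over all 11734 genes. Of the 4 embryos, none held 5 endothelial cells, with 0, 1, 2 and 1, so no test against endothelium was run.

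**Figure D3:**
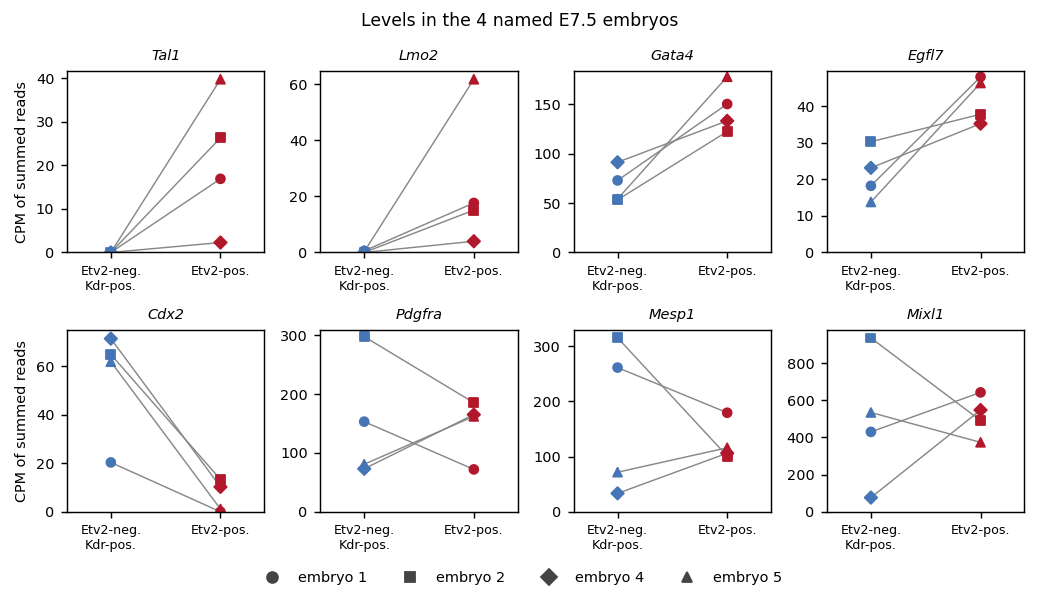
CPM of summed reads (vertical axes, from 0) in Kdr-positive cells without Etv2 (blue) and Etv2-positive cells (red) of 4 named E7.5 embryos, joined within an embryo. Tal1, Lmo2, Gata4 and Egfl7 were higher in the members of all 4 embryos and Cdx2 lower, whereas Pdgfra, Mesp1 and Mixl1 differed in direction between embryos.

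Across all E7.5 cells, reads were pooled per class, and a gene was counted as higher or lower when the log2 ratio of pooled CPM + 1 was at least 1 in size, the gene reached 10 CPM in either class and every plate with 5 cells of both classes had the same sign. Stages have 1 sample each, so no p value belongs to these counts. Against Kdr-positive cells without Etv2, 7 of 9274 genes were higher (0.0755%) and 7 lower (0.0755%), or 0.151% in all, over 9 plates. TMM scaling gave 5 higher and 24 lower. The median ratio of all genes was 0.07.

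The higher genes were Hspa12a, the transporter gene Slco3a1, the calcium-channel gene Itpr3, Spindoc, Egfl7, the AP-1 factor Junb and the cyclin Ccnd1. Hspa12a had the largest ratio, 19.6 against 4.41 CPM (log2 ratio 1.93, plates 0.14 to 5.76), and Slco3a1 followed at 20.8 against 5.29 CPM (1.79, 0.13 to 3.18). Egfl7 stood at 74.1 against 32.5 CPM (1.17, 0.23 to 2.21) and reached 20 CPM in 81 members (72.3%) and 57 Kdr-positive cells (55.9%). Ccnd1, which drives entry into the cell cycle, was the most abundant of them at 310.98 against 153.96 CPM (1.01, 0.31 to 2.17). Without lane plate 1 its ratio was 0.93, below the 1 that the count requires.

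The lower genes were Cldn6, Skap2, Ngly1, the ephrin Efna1, the planar polarity gene Prickle1, Zfp472 and Primpol. Cldn6, a tight-junction gene of embryonic epithelium, stood at 2.02 against 35.98 CPM (log2 ratio -3.61, plates -6.84 to -0.21) and was found in 2 members and 10 Kdr-positive cells. Efna1 stood at 13.04 against 33.9 CPM (-1.32, -2.85 to -0.53). Skap2 had a ratio of -1.38, and of -0.80 without lane plate 1.

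Tal1 and Lmo2 were not among the counted genes, although both were higher in the members on 9 of 9 plates. Pooled Tal1 was 35.7 against 26.97 CPM (log2 ratio 0.39, plates 0.58 to 5.35) and Lmo2 38.2 against 20.7 CPM (0.85, 0.81 to 5.64). The pooled values rest on lane plate 1, where all 6 Kdr-positive cells carried Tal1 and Runx1 at 20 CPM and 4 had over 1% of their reads on haemoglobin genes. Without that plate Tal1 was 33.8 against 9.27 CPM (1.76) and Lmo2 37.1 against 7.09 CPM (2.24), and both were counted as higher. Since all Kdr-positive cells of the plate carried Tal1, a rise of the Tal1 ratio without them was fixed in advance. Hbb-bh1, the embryonic beta-like globin, moved from 134.1 against 2229 CPM to 0.780 against 2.30 CPM. Sox7 was 28.4 against 2.61 CPM (3.03, higher on 7 of 9 plates) and hardly moved, at 2.98 without the plate.

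With all plates, no list had more than 1 counted gene in this comparison, and that gene was Egfl7. Of 13 streak genes past the minimum 0 were counted, with a median log2 ratio of 0.02 beside 0.07 over all genes. The same held for 12 Wnt and FGF response genes (median -0.02), 10 BMP response genes (-0.03), 11 cell cycle genes (0.08) and 10 haemangioblast factors (-0.15). Without lane plate 1 the median of the haemangioblast factors was 0.81, with 2 of the 10 counted as higher, Tal1 and Lmo2. The 9 blood progenitor genes past the minimum had a median of -1.68 and the 8 erythroid genes of -3.43, with 0 counted, and the haemoglobin-rich Kdr-positive cells of lane plate 1 lie in these pools. Without that plate these medians were -0.30 and -0.46.

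Against endothelium the E7.5 members were higher in 5.84% of 9702 genes and lower in 8.67%, or 14.5% in all, over 3 plates. With TMM scaling the shares were 4.51% and 10.9%. The rule keeps mature endothelial cells out of the members, so the direction of endothelial genes follows in part from it. The classes were also spread unevenly over plates. Lane plates 1, 2 and 3 held 30, 65 and 22 endothelial cells and 3, 17 and 26 members. The chimera plate held 0 endothelial cells and 16 members. On lane plate 2 no member reached 20 CPM of Mesp1, so the pooled streak ratios below mix class and plate. Mixl1 stood at 437.2 against 0.329 CPM (log2 ratio 8.37) and Tdgf1, the Nodal co-receptor, at 444.1 against 0.315 CPM (8.40). Mesp1 followed at 135.2 against 0.0771 CPM (6.98), Lhx1 at 224.3 against 1.62 CPM (6.43) and Eomes at 180 against 1.21 CPM (6.36). Of 14 streak genes, 10 passed the minimum and 9 of them were counted as higher, with a median log2 ratio of 5.14 beside 0.07 over all genes.

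Signalling genes of the streak went the same way. Of 12 Wnt and FGF response genes, 8 were higher and 0 lower, with Wnt5a at 164.7 against 3.98 CPM (5.06), Lef1 at 56.9 against 2.68 CPM (3.98) and Axin2, a target of canonical Wnt signalling, at 32.3 against 1.49 CPM (3.74). Of 11 lateral plate genes past the minimum, 6 were higher, among them Msx1 at 210.1 against 13.3 CPM (3.88), Bmp4 at 148.3 against 38.4 CPM (1.92) and Foxf1 at 34.95 against 4.44 CPM (2.73). The pluripotency factor Pou5f1 stood at 55.02 against 0.428 CPM (5.29).

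Genes of formed vessels were lower in the members. Lyve1 and Stab2, hyaluronan receptors of endothelium, stood at 0.282 against 456.05 CPM (log2 ratio -8.48) and 0.244 against 267.96 CPM (-7.76). The junction gene Cldn5 stood at 3.40 against 457.97 CPM (-6.71), Emcn at 0.920 against 125.7 CPM (-6.04) and Plvap at 12.97 against 520.2 CPM (-5.22). The receptors Flt1 and Flt4 were at 34.98 against 353.3 CPM (-3.30) and 19.5 against 215.4 CPM (-3.40). Of 8 Notch genes, 4 were lower, namely Notch1, Notch4, Dll4 and Hey1.

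Of 13 haemangioblast factors past the minimum, 9 were lower in the E7.5 members than in endothelium and 0 higher. Fli1 stood at 23.1 against 308.7 CPM (log2 ratio -3.69), Lyl1 at 5.86 against 89.9 CPM (-3.73) and Hhex at 18.4 against 117.2 CPM (-2.61). Gata2 and Sox7 were counted as lower at -1.12 and -2.24. With only the 28 Tal1-positive members, their ratios were 0.47 and 0.10, so the pooled values of these genes rest on the share of members without Tal1. Tet2 and Tet3, which encode dioxygenases that oxidise methylcytosine, were lower as well, at 12.5 against 40.8 CPM (-1.63) and 33.2 against 74.6 CPM (-1.15).

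At E8.5 the members were compared with 48 Kdr-positive cells without Etv2, on 2 plates with enough cells of both classes. Of 9706 genes, 3.76% were higher and 2.29% lower, or 6.05% in all, and TMM scaling gave 3.45% and 4.21%. Tal1 stood at 160 against 58.5 CPM (log2 ratio 1.43, plates 0.94 and 1.76) and Lmo2 at 178.7 against 56.4 CPM (1.65, 0.65 and 1.45). Hhex stood at 150.97 against 14.2 CPM (3.32), Gata2 at 35.9 against 10.7 CPM (1.66) and Fli1 at 105.6 against 51.1 CPM (1.03). With these genes, 5 of 12 haemangioblast factors past the minimum were counted as higher and 0 as lower, with a median of 1.54 beside 0.03 over all genes. Without plate 5 the ratios were 1.57 for Tal1, 2.50 for Lmo2, 5.60 for Hhex, 1.60 for Gata2 and 1.39 for Fli1.

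Of 11 endothelial junction and receptor genes past the minimum, 3 were counted as higher at E8.5 and 0 as lower, with a median log2 ratio of 1.60. Without plate 5 the number was 8 of the 11, but only plate 4 was then left for the same-sign rule. The share of all genes counted rose as well, from 6.05% to 13.5%, so the rise is not particular to these genes. Of 8 VEGF pathway genes 2 were higher and 0 lower, with a median of -0.04. Eng stood at 103.9 against 7.67 CPM (log2 ratio 3.60), Plvap at 126.8 against 31.1 CPM (1.99), Emcn, an endothelial sialomucin, at 38.4 against 0.767 CPM (4.48) and the VEGF receptors Flt1 and Flt4 at 53.1 against 8.31 CPM (2.54) and 32.5 against 7.88 CPM (1.92). Emcn reached 20 CPM in only 5 of 47 members and 1 of 48 Kdr-positive cells. Kit, the stem cell factor receptor, stood at 139.99 against 53.6 CPM (1.37) and was found in 32 against 23 cells. Of 7 DNA methylation enzymes, 2 were higher, the de novo methyltransferases Dnmt3a at 205.8 against 92.5 CPM (1.15) and Dnmt3b at 178.1 against 86.2 CPM (1.04). Without plate 5 Dnmt3b had a ratio of 0.85 and was no longer counted, while Dnmt3a stayed at 1.14.

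Among the lists, the genes lower at E8.5 were 1 of 8 cardiac, 2 of 13 lateral plate, 1 of 11 BMP response and 3 of 9 erythroid genes past the minimum. Without plate 5 the numbers were 2, 6, 1 and 5, with only plate 4 left for the same-sign rule. The share of all genes counted then also rose, as given above. Myl7, the atrial myosin light chain, stood at 4.34 against 394.2 CPM (log2 ratio -6.21) and Postn, a matrix gene of mesenchyme, at 21.7 against 527.7 CPM (-4.54). Hba-x and Hbb-y, the embryonic globins, stood at 80.5 against 3581 CPM (-5.46) and 62.4 against 2549 CPM (-5.33), and reached 20 CPM in 3 and 4 members against 5 and 7 Kdr-positive cells. Without plate 5 their ratios were -11.49 and -10.59. Of the Kdr-positive cells then left, only the 1 cell of plate 1 and the 1 cell of plate 2 had over 1% of reads on haemoglobin genes. Neither plate held a member, so these globin ratios rest on few cells. Bmp4 was lower at 60.4 against 228.2 CPM (-1.90), and so was its response gene Id2 (-1.19). Myl7 reached 20 CPM in 2 members and 7 Kdr-positive cells, and its ratio turned to 0.41 among cells with at least 300000 reads.

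Against E8.5 endothelium 1.91% of 9695 genes were higher and 7.14% lower, or 9.05% in all, over 3 plates. Cdx2 stood at 92.3 against 3.08 CPM (log2 ratio 4.51), the growth factor Ptn at 38.4 against 1.201 CPM (4.16), the mesenchymal homeobox factors Prrx2 and Msx2 at 82.7 against 4.09 CPM (4.04) and 21.5 against 0.750 CPM (3.69), and Tbx20 at 43.98 against 9.24 CPM (2.13). The keratins Krt8 and Krt18 stood at 250.6 against 24.2 CPM (3.32) and 128.5 against 33.3 CPM (1.91). Against E8.5 Kdr-positive cells without Etv2, and without plate 5, Krt8, Msx2 and Tbx20 had ratios of -1.43, -1.13 and -1.56, and Cdx2 of 0.55. Lyve1 was again lowest, at 2.56 against 477.02 CPM (-7.07), followed by Stab2 at 0.281 against 130.7 CPM (-6.68), and Cd93 stood at 1.93 against 142.5 CPM (-5.61).

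Tal1 stood at 159.6 CPM in the members and 125.9 CPM in endothelium (0.34) and Lmo2 at 178.7 against 202.4 CPM (-0.18), and neither was counted. Of 13 haemangioblast factors past the minimum 5 were lower, with a median log2 ratio of -0.70 at E8.5 against -2.61 at E7.5, and the difference between the stages was not tested. Without plate 5 the E8.5 median was -1.82, with 9 lower, and Lmo2 had a ratio of -0.69. Only plates 3 and 4 were then left for the same-sign rule, and the share of all genes counted rose from 9.05% to 18.1%. Of 12 endothelial junction and receptor genes past the minimum, 12 were lower at both stages, with medians of -2.66 and -4.93.

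**Figure D4:**
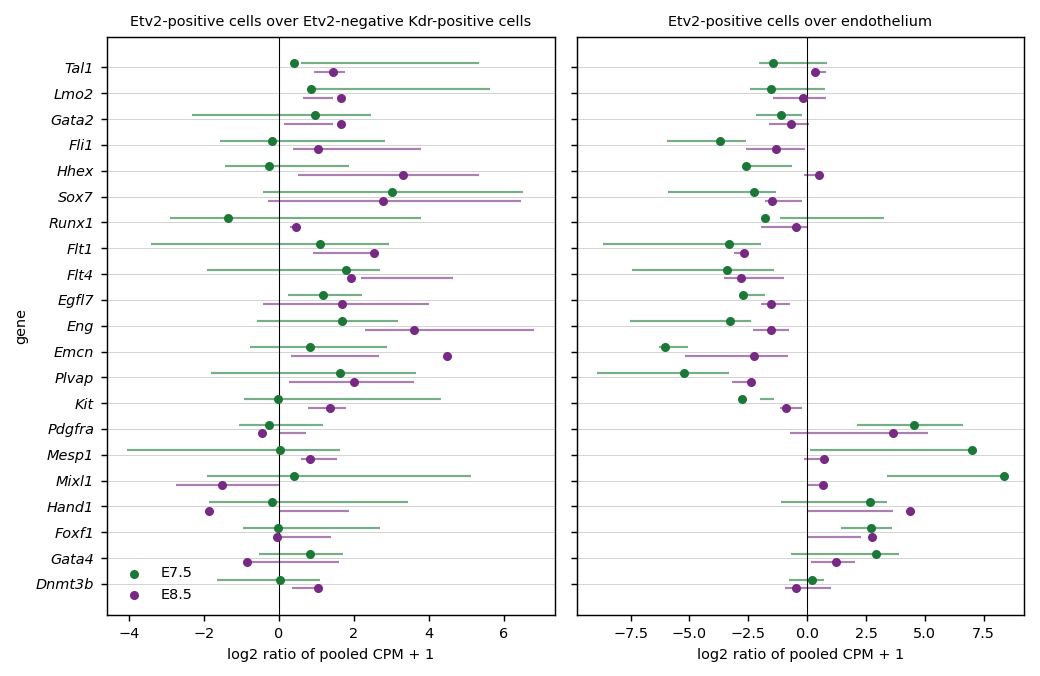
Log2 ratio of pooled CPM + 1 (horizontal axes) of Etv2-positive cells over Kdr-positive cells without Etv2 (left) and over endothelium (right) at E7.5 (green) and E8.5 (purple), for genes of the named lists. Lines span the lowest and highest plate with 5 cells of both classes; a pooled point may lie outside its line, as for Tal1 on the left at E7.5, because cells of the other plates are in the pool.

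The E8.5 members fell apart by plate. On plate 5, 11 of 11 members carried Tal1, Lmo2, Lyl1, Runx1, Gfi1b and Itga2b at 20 CPM, 10 carried Gata1, and 10 carried Gp9, a platelet glycoprotein gene. Their Etv2 was low, 20.6 to 105.8 CPM with a pooled value of 59.2 CPM, beside 327.1 CPM on plate 4 and 679.3 CPM on plate 3. Kdr was 162.1 CPM beside 965.9 and 1304 CPM. Hbb-bh1 reached 20 CPM in 8 of the 11, with a pooled value of 5769 CPM. The 13 Kdr-positive cells without Etv2 on this plate were alike, with Tal1 in 10, Lmo2 in 13 and Runx1 in 12.

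No read of Sox7, Pdgfra, Hand1 or Foxf1 was counted in the plate 5 members, among 7884899 reads. Summed over plates 3 and 4, these genes stood at 67.4, 52.9, 90.5 and 64.8 CPM, which is at least 177.04-fold, 139.04-fold, 237.9-fold and 170.4-fold higher. Gfi1b, a transcriptional repressor that acts in the erythroid and megakaryocyte lineages, stood at 582.5 CPM on plate 5. It had no read among the 23100448 reads of the 33 members of plates 3 and 4, at least 4485-fold less. These fold limits cover the counting of reads alone, not the spread between cells. The sort gate of each plate is not in the labels, so gate and plate cannot be told apart.

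On plate 4, 21 of 21 members carried Kit, 17 Hand1, 17 Msx1, 18 Krt8, 16 Cdx2, 12 Tbx4 (a factor of the allantois) and 11 each Pdgfra, Foxf1 and Sox7. Tal1 reached 20 CPM in 9 of them, Eng in 15 and Plvap in 12. Plate 3 held 12 members, with Plvap in 10, Lmo2 and Hhex in 8 each, and Tal1 and Flt1 in 6 each. Neither plate had a member with Runx1, Gfi1b or Gata1 at 20 CPM. Among plates 3, 4 and 5, Pdgfra, Hand1 and Foxf1 thus occurred on plates 3 and 4 alone, and Runx1, Gfi1b and Gata1 on plate 5 alone. Vessel genes were not confined to plates 3 and 4, since Egfl7 reached 20 CPM in 41 of the 47 E8.5 members.

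**Figure D5:**
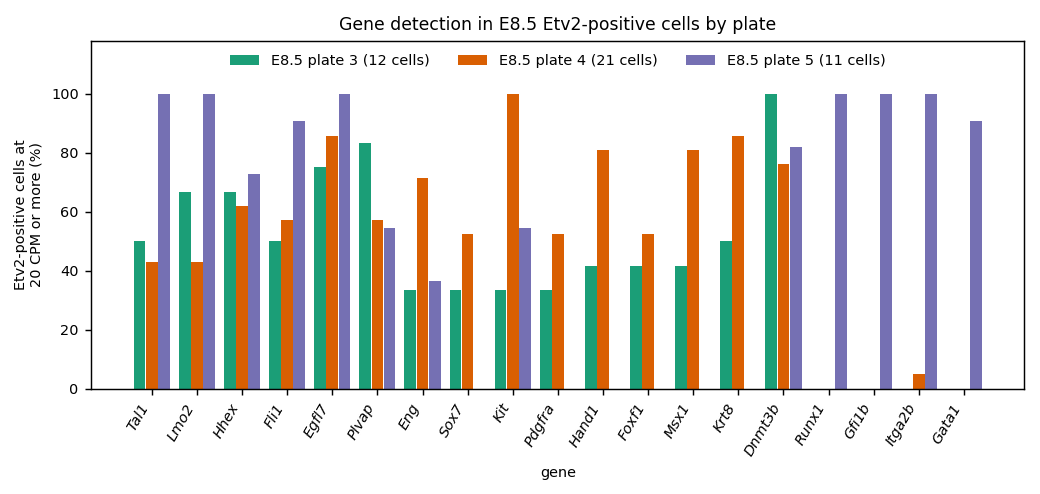
Share of Etv2-positive cells at 20 CPM or more of each gene (bars from 0) on E8.5 plates 3, 4 and 5, with 12, 21 and 11 cells. Runx1, Gfi1b and Gata1 appear on plate 5 alone, Hand1, Foxf1, Msx1, Krt8, Pdgfra and Sox7 on plates 3 and 4 alone.

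Within E8.5, 27 members had Tal1 and 20 did not. Lmo2 reached 20 CPM in 23 against 6 cells, Hhex in 23 against 7, Fli1 in 19 against 10, Lyl1 in 14 against 2 and Mef2c in 18 against 4, while Pdgfra was found in 4 against 12. Runx1, Gfi1b, Itga2b and Gata1 were found in 12, 12, 13 and 11 Tal1-positive members and in 0 of the others, and plate 5 accounts for 11, 11, 11 and 10 of these cells. Within plate 4, where 9 of 21 members had Tal1, Lmo2 was in 6 of 9 against 3 of 12, Sox7 in 8 of 9 against 3 of 12 and Pdgfra in 3 of 9 against 8 of 12. Within plate 3 the split was 6 of 6 against 2 of 6 for Lmo2 and for Hhex. The median depths of the groups were 494033 and 434130 reads on plate 4 and 915298 and 911054 on plate 3.

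Between the stages, 1179 of 9710 genes were higher in the E8.5 members (12.1%) and 980 lower (10.1%), or 22.2% in all. Stage, plates, animals and gates change together here and cannot be told apart. The paper profiled some cells by scNMT-seq, with DNA methylation and accessibility from the same cell, and others by RNA alone. The numbers of these cells equal those of the E8.5 and E7.5 cells here, so the protocol may change with stage too. Tdgf1 and Wnt3, a ligand of the streak, stood at 444.1 and 94.4 CPM at E7.5 and had no read among the 32058975 reads of the E8.5 members, at least 4746-fold and 1009.2-fold less. Both limits cover the counting of reads alone, not the spread between cells. Mixl1 was at 437.2 CPM at E7.5 and 0.780 CPM at E8.5 (log2 ratio -7.94) and Mesp1 at 135.2 and 0.842 CPM (-6.21). Of 10 streak genes past the minimum 9 were lower at E8.5, with a median of -4.50 beside 0.09 over all genes, as were 5 of 5 pluripotency genes, with a median of -4.45.

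Vessel and blood genes were higher at E8.5. Of 11 endothelial genes past the minimum 11 were higher, with a median log2 ratio of 2.65, among them Plvap at 126.8 against 12.97 CPM (3.19), Eng at 103.9 against 30.1 CPM (1.76) and Egfl7 at 223.3 against 74.1 CPM (1.58). Among Tal1-positive members alone the ratio of Eng was -0.47, and without plate 4 that of Icam2, another of the 11, was -0.74 instead of 2.65. Of 12 haemangioblast factors 9 were higher, with a median of 2.14, among them Hhex at 150.97 against 18.4 CPM (2.97), Lmo2 at 178.7 against 38.2 CPM (2.20) and Tal1 at 160 against 35.7 CPM (2.13). Of 10 blood progenitor genes, 10 were higher, with a median of 3.49. Without plate 5, 3 of the 10 were higher and 1 lower, with a median of 0.01, and the ratio of Runx1 was -1.95, of Itga2b -0.62 and of Gata1 -0.34. That of Hbb-y, an erythroid gene, was then -0.33. Hhex, Lmo2 and Tal1 kept ratios of 3.13, 1.70 and 1.95 without plate 5. Tal1 reached 20 CPM in 16 of the 36 E8.5 members on other plates and Lmo2 in 18.

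For reference, Tal1 lies on chromosome 4 at 115056426 to 115071755 (plus strand), Lmo2 on chromosome 2 at 103957986 to 103981878 (plus strand), Etv2 on chromosome 7 at 30633616 to 30635852 (minus strand) and Kdr and Pdgfra on chromosome 5 at 75932827 to 75978458 (minus strand) and 75152292 to 75198215 (plus strand), in GRCm38. The counts are per whole gene, so they do not show which exons or transcript forms were read.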

How the data were processed

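The deposited table holds whole-number counts per gene, made by the authors from the reads of 1824 single cells, for 55487 genes. The submitters' processing notes name HISAT2 2.1.0, featureCounts and GRCm38. Strand and multi-mapping settings are not given in the sources used here, so paralogs (globins, keratins), pseudogenes and antisense genes are uncertain. 0 columns were left without a sample. Members, lists and comparisons were chosen with earlier results of these data known. The classes held 159 members (112 at E7.5, 47 at E8.5), 150 Kdr-positive cells without Etv2 (102 and 48) and 374 endothelial cells (128 and 246). Higher and lower genes numbered 567 and 841 (E7.5 over endothelium), 365 and 222 (E8.5 over Kdr-positive cells) and 185 and 692 (E8.5 over endothelium). Counts were divided by all reads of a cell or pool (CPM), and 1 CPM was added before log2 ratios, which understates changes of low genes. Named genes are those of the lists and up to 10 with the highest and 10 with the lowest ratio among those counted, without the 7 genes of the rule, mitochondrial and predicted genes. Sums per embryo were tested with edgeR 4.0.16 (TMM, filterByExpr, embryo as a block, since both classes come from one animal) and DESeq2 1.42.0 under R 4.3.3, so p values measure spread between these 4 embryos. No doublet caller was run, since the sort collected singlets. The procedures were tested on simulated data. Intervals are exact (Clopper-Pearson, 95%, scipy 1.17.1), and amplified reads are not independent molecules.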

Additional observations from a re-analysis of the deposited data

Results flagged for a closer look

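Myl7, the atrial myosin light chain, stood at 283.1 CPM in the summed Etv2-positive cells of embryo 5 and at 28.4 to 63.1 CPM in those of the other 3 embryos. Its distance from the other values exceeded Dixon's 95% limit, which chance alone passes in about 1 of 20 groups, and it was 1 of 65 groups of 4 embryos looked at.

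Ccnd2, a D-type cyclin, differed in direction between the stages. Its log2 ratio over Kdr-positive cells without Etv2 was 0.60 at E7.5, with all 9 plates above 0 (0.11 to 2.80). At E8.5 the pooled ratio was 0.14 while both plates lay below 0 (-0.46 and -0.22). The difference between the stages was not tested.

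Signal outside the comparisons came from 2 sets of cells. Among the wells with fewer than 100000 reads, 22 reached 20 CPM of both Etv2 and Kdr. Among deeper cells, 55 reached 20 CPM of Etv2 with Kdr below that level and fewer than 3 endothelial genes. Both sets were left out by the rule.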

How the results depend on the processing

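At 50 CPM for Etv2 and Kdr, 69 E7.5 members remained. Leaving out each E8.5 plate gave 26 (without plate 4) to 47 E8.5 members. The genes counted are given in percent of those tested in the report. Between E7.5 members and Kdr-positive cells 0.151% became 0.313% with TMM scaling, 0.345% with DESeq2 size factors, 0.0970% with 5 CPM added, 0.259% with no minimum, 0.755% with Etv2 at 50 CPM, 0.280% at 300000 reads and 0.151% to 0.302% leaving out plates in turn (highest without the chimera plate, and above 1.5 times also without embryo 4 or 5 or lane plate 2, 3, 4 or 6). At E8.5, 6.05% became 10.1% with no minimum, 12.7% on plates with both classes only and 5.99% to 13.5% leaving out plates (12.9% without plate 4, 13.5% without plate 5). Against E8.5 endothelium 9.05% became 14.3% with no minimum and 9.12% to 18.1% leaving out plates (highest without plate 5). Between stages 22.2% became 45.5% with no minimum. With Tal1-positive members only, 8.63% and 9.24% were counted against Kdr-positive cells at E7.5 and E8.5. This setting, the omission of haemoglobin-rich cells and the alternatives of the embryo test were chosen after seeing the data. So was the choice of lane plate 1 and E8.5 plate 5 as the plates to be set apart in the report. In the embryo test, no replicate block gave 0 calls, no filter 2 and DESeq2 46, and the other edgeR alternatives gave 0. The pooled comparisons come from no test, so no block could be fitted in them, and plates with both classes enter through the rule that every such plate has the same sign.

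Reversed ratios were, with Tal1-positive members only, Gata2 0.47, Sox7 0.10 and Hbb-bh1 1.07 (E7.5 over endothelium) and Eng -0.47 (between stages); Myl7 0.41 at 300000 reads (E8.5 over Kdr-positive cells); and between stages Hba-x 5.50 at 50 CPM of Etv2 and -7.03 to 5.34 leaving out plates (5.34 without lane plate 1), and, leaving out plates in turn, Icam2 -0.74 (without plate 4) to 3.21, Runx1 -1.95 to 1.91, Itga2b -0.62 to 5.91, Gata1 -0.34 to 4.74 and Hbb-y -0.33 to 5.55 (the last 4 lowest without plate 5). The cause was not tested. TMM scaling moved the median ratio over E7.5 endothelium from 0.07 to -0.08. Of 2813 values of the counted gene ratios under the alternatives, 2697 kept direction and moved by less than the spread of plates. Depth limits low genes, and a gene at 20 CPM in a cell of 100000 reads rests on a handful of reads.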

Other observations

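The enzymes of DNA methylation were read in most members. Dnmt3b had a median of 228.2 CPM over the E7.5 members and 82.7 CPM at E8.5, Dnmt3a 96.4 and 176.9 CPM, and Dnmt1, the maintenance methyltransferase, 122.3 and 181.2 CPM. Uhrf1, which brings Dnmt1 to replicating DNA, reached 20 CPM in 95.5% and 95.7% of members. Of the dioxygenase genes, Tet1 reached 20 CPM in 75 E7.5 members and 21 E8.5 members, Tet2 in 22 and 22, and Tet3 in 51 and 33. Between the stages Tet1 was lower at E8.5 (31.4 against 65.8 CPM, log2 ratio -1.04, and -0.70 without plate 5) and Tet2 higher (39.7 against 12.5 CPM, 1.60). The labels give no genotype for single cells, so these reads could not be set against the knockout, and counts per whole gene do not show whether a deleted exon was read.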
